A study of Mus musculus with 39 samples.

Results

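The genes described here encode the Fos and Jun subunits of the transcription factor AP-1, and were chosen by symbol: the 7 rows named Fos, Fosb, Fosl1, Fosl2, Jun, Junb and Jund in each of 2 count tables of 50559 genes. All 7 passed the filter on low counts in the basolateral amygdala (BLA), where 23168 genes were tested, and in the hippocampus, where 25791 were. The tables hold 39 libraries of bulk polyadenylated RNA from female mice aged 9 months, 19 from the BLA and 20 from the hippocampus. The study asked how amyloid and tau pathology together act on brain circuits of memory and emotion.

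APP/Tau mice carried the human APPSw,Ind transgene (J9 line) and the human Tau P301S transgene (PS19 line), whose expression is driven by platelet-derived growth factor B and prion protein promoters in these lines. Control mice carried neither transgene. Mice of both genotypes also carried CaMKIIα-Cre and RiboTag, so that glutamatergic neurons of the forebrain tag their ribosomes, but the libraries were made from the input lysate and hold RNA of every cell type in the tissue. Trained mice heard a tone whose end coincided with an electric shock to the feet, and tissue was collected 1 h later; naive mice were not conditioned. The BLA groups were 5 naive and 4 trained APP/Tau libraries and 5 naive and 5 trained control libraries. The hippocampal groups were 5 naive and 4 trained APP/Tau libraries and 5 naive and 6 trained control libraries. BLA tissue was taken as several micropunches per mouse, so a punch can include neighbouring nuclei, and 10 ng of RNA entered each BLA library against 50 ng for each hippocampal library.

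AP-1 is a dimer that binds DNA through basic leucine zipper domains. Fos proteins do not form stable dimers with each other and bind DNA with a Jun partner, whereas Jun proteins can also pair among themselves. Fos, Fosb and Junb are textbook immediate early genes: in neurons their transcription starts within minutes of synaptic activity through CREB and serum response factor at their promoters, needs no new protein, and has largely subsided within hours. Fos mRNA and protein are widely used to mark neurons active in learning, including in the amygdala and hippocampus after fear conditioning. Jund is the subunit with the steadiest basal expression.

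The start-proximal sequences of Fos, Fosb, Junb and Jun are shown because these are the members in which the motifs searched for were found before the start. They are the 120 bases before the RefSeq start, so the outer TGACG of Fos is not in the stretch shown, build GRCm38.p6, written 5′ to 3′ on the strand of the gene. Capitals mark TGACG (the core of the CREB-bound element), the related octamer TGACNTCA and the TATA box TATAAA.
Fos (chr12:85473770-85473889, plus strand): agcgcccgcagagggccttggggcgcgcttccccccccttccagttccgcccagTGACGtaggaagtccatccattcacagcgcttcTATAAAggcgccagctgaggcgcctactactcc
Fosb (chr7:19310046-19310165, minus strand): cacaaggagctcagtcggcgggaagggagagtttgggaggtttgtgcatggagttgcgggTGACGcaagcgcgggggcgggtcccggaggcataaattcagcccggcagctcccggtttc
Junb (chr8:84978749-84978868, minus strand): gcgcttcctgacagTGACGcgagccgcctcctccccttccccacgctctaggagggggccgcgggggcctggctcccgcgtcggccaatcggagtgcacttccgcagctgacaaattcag
Jun (chr4:95052223-95052342, minus strand): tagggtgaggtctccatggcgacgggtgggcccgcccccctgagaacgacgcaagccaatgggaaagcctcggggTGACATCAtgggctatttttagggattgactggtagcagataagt
Both strands of the 250 bases before each start were searched for these 3 motifs and for TGANTCA, a form of the AP-1 site. TGACG lay at -66 to -62 and -129 to -125 in Fos, at -60 to -56 in Fosb and at -106 to -102 in Junb, counted from the start, and 17.8% of 32851 mouse promoters held it. TGACNTCA lay at -45 to -38 in Jun and was found in 7.49% of promoters, and with G for N it holds TGACG as well. TATAAA lay at -33 to -28 in Fos and was found in 12.4% of promoters. Junb held TATAAA at 1 to 6, just after the RefSeq start and so outside these 250 bases. The annotated start of Junb, chr8:84978718, lies further downstream than its RefSeq start. TGANTCA was found in 6.75% of promoters and in none of the 6 member windows searched. The Fosl2 and Jund windows held none of the 4 motifs. The Fosl2 window ends at chr5:32136471, inside the annotated gene, which starts at chr5:32135801. The Jund window ends at chr8:70697738, well before the annotated start at chr8:70698949. The search therefore does not describe the bases before the annotated starts of these 2 genes. Fosl1 was not in the promoter table. A match describes letters in the window and does not show that a factor was bound.

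Levels are CPM (counts scaled to a common library size) after scaling library sizes by the TMM method within each tissue. To compare genes, the mean CPM of naive controls was divided by the exon length of each gene (GENCODE vM21, GRCm38). In the BLA the order was Jund (109.0 CPM per kilobase), Junb (32.5), Jun (23.3), Fos (8.16), Fosl2 (5.36), Fosb (4.71) and Fosl1 (2.08). In the hippocampus it was Jund (90.5 CPM per kilobase), Jun (43.9), Junb (25.8), Fosl2 (6.08), Fos (5.78), Fosl1 (2.12) and Fosb (1.84). Jund, the constitutive subunit, thus had the highest level per length in both regions. Exons differ between transcripts of a gene, so this order is approximate.

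The annotation places Fos at chr12:85473890-85477273 on the plus strand, Fosb at chr7:19302696-19310051 on the minus strand, Fosl1 at chr19:5447547-5455946 on the plus strand, Fosl2 at chr5:32135801-32157842 on the plus strand, Jun at chr4:95049034-95052222 on the minus strand, Junb at chr8:84974484-84978718 on the minus strand and Jund at chr8:70698949-70700616 on the plus strand, all in GRCm38. Another gene lies on the opposite strand of 4 of them. Ccdc85b shares 2767 bases with Fosl1, Prdx2 shares 351 bases with Junb, Gm11175 shares 919 bases with Jund and Junos shares 689 bases with Jun. Ccdc85b ran from 85.7 to 185.0 CPM in the BLA and from 81.6 to 126.0 CPM in the hippocampus, well above Fosl1 (2.72 to 5.92 CPM and 3.47 to 5.52 CPM). Prdx2 ran from 144.0 to 254.0 CPM, and Junos from 2.2 to 8.59 CPM. Whether counting used strand is not given in the sources used here. Reads in the shared part of Fosl1 and Ccdc85b therefore cannot be told apart, and the same holds for the shared parts of Junb, Jund and Jun. The shared lengths count introns as well as exons, and 2767 bases is more than the 2033 exon bases of Fosl1.

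Library totals ran from 50301286 to 74293510 counts in the BLA and from 92122767 to 128254479 counts in the hippocampus. Prnp, the prion protein gene whose promoter drives a transgene, was used to check the genotype labels. It ran from 1590 to 2230 CPM in hippocampal APP/Tau libraries and from 707 to 964 CPM in hippocampal controls, which do not overlap. In the BLA it ran from 1070 to 1680 CPM in APP/Tau libraries and from 743 to 1050 CPM in controls, again without overlap. The source of the higher Prnp counts was not tested. All 8 markers of BLA projection neurons and all 5 of excitatory neurons were detected in every BLA group. All 6 dentate granule, 4 CA1 and 5 CA3 markers were detected in every hippocampal group. Detected means a count above 0 in at least 1 library of the group. The same markers were also all detected in the other tissue, so detection does not tell the regions apart. Libraries that stood apart were naive control 1 and trained control 1 of the hippocampus, in which 18S rRNA gene copies (Rn18s-rs5) took 5.18% and 1.99% of counts against a median of 0.0912%. In the BLA, trained control 2 and naive APP/Tau 2 had the highest levels of markers of the striatum and central amygdala, which adjoin the BLA. In bulk RNA, fewer cells of a type and less RNA per cell cannot be told apart.

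**Figure D1:**
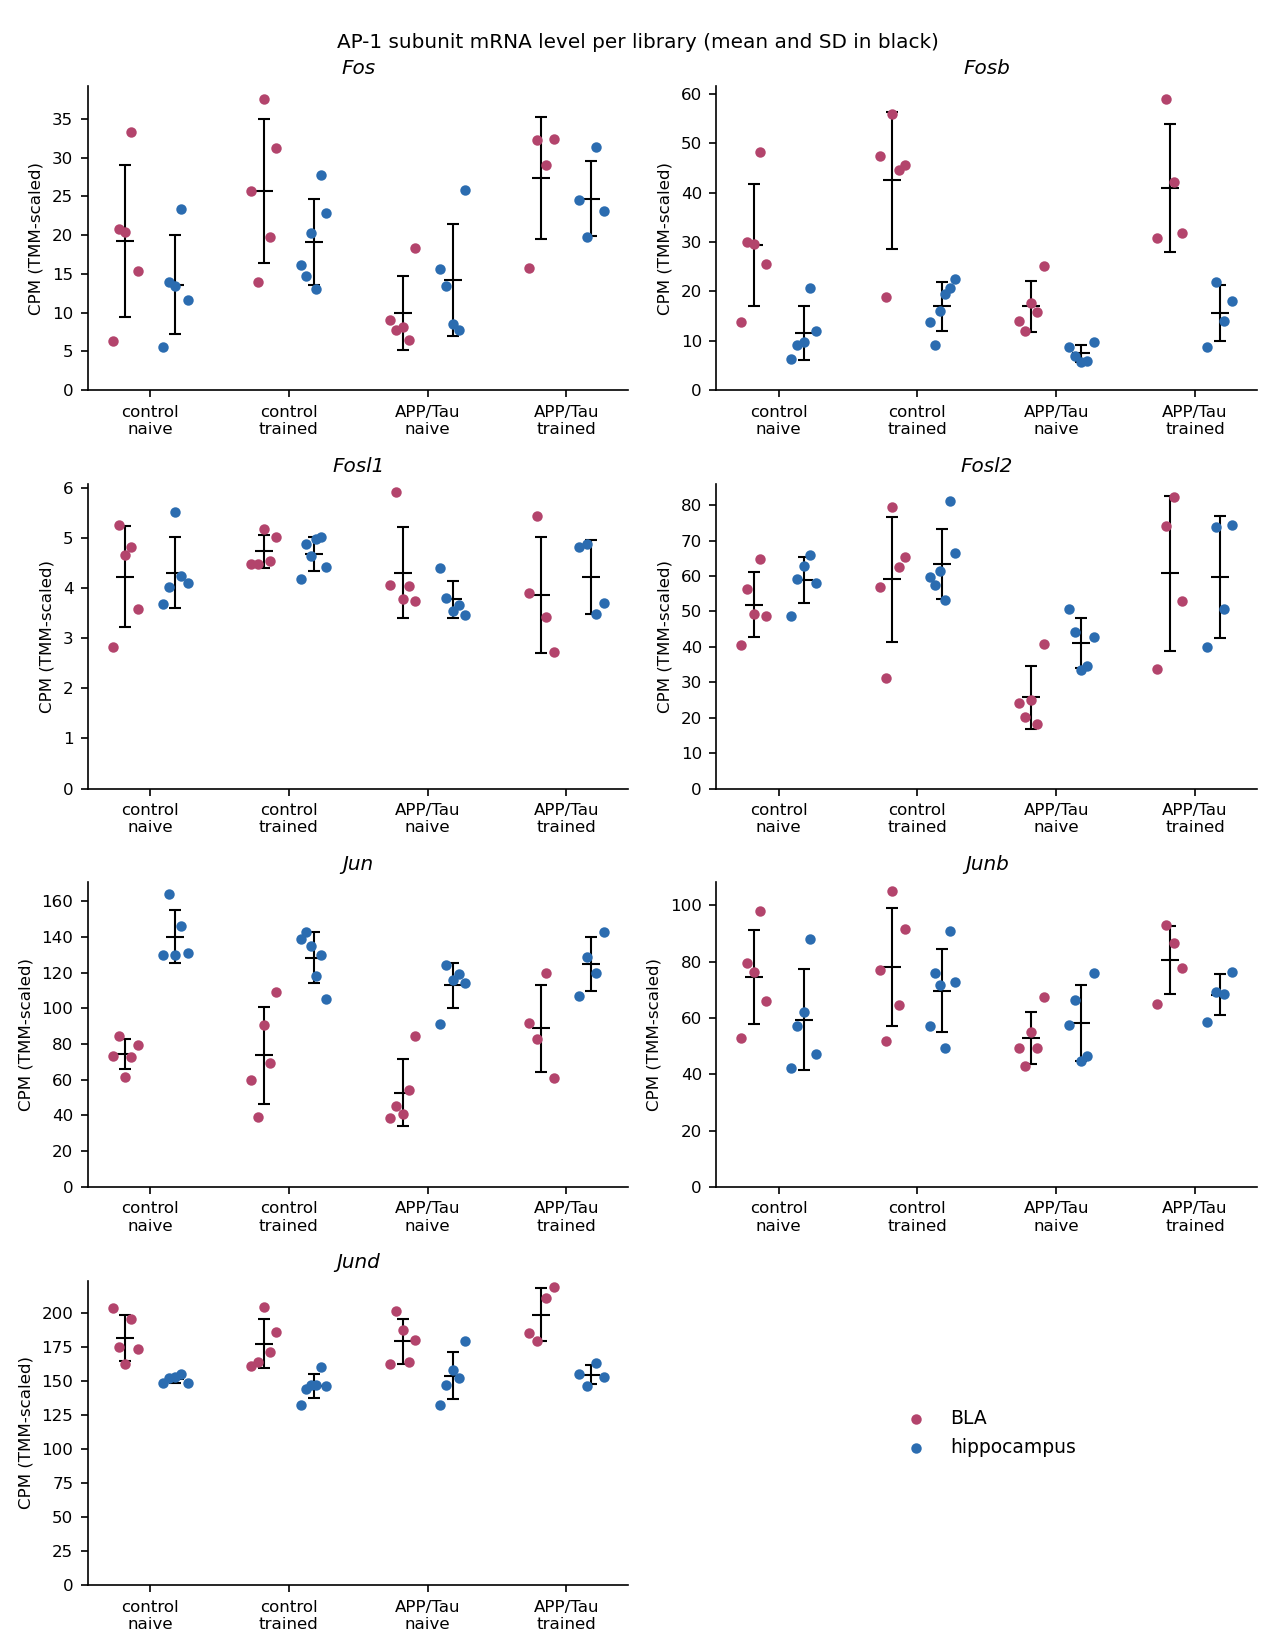
TMM-scaled CPM (y axis, from 0) of the 7 AP-1 subunit genes in each library, grouped on the x axis by genotype and training, with BLA libraries in purple and hippocampal libraries in blue and the mean and SD in black. Among the 4 BLA groups, naive APP/Tau libraries have the lowest mean of Fos, Fosb, Fosl2, Jun and Junb, and Jund stays between 132 and 219 CPM in all 39 libraries.

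The first comparison asks whether the genes differed between genotypes before any training. In naive BLA, mean levels of Fos, Fosb, Fosl2, Jun and Junb were lower in APP/Tau mice than in controls, at folds from 0.495 (Fosl2) to 0.709 (Jun), whereas Fosl1 and Jund were near equal. None of the 7 passed the adjusted threshold. Fosl2 had the smallest p of the members in this comparison, and 1 of its 25 between-group pairs of libraries went the other way.

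Fos, the founding member and the usual marker of recent activity, stood at 9.05, 7.79, 8.19, 6.45 and 18.3 CPM in naive APP/Tau mice 1 to 5 and at 6.31, 20.8, 20.4, 33.3 and 15.4 CPM in naive controls 1 to 5. The groups overlap at both ends: APP/Tau mouse 5 was above 2 controls, and control 1 was the lowest of all 10. The log2 difference was -0.95 ± 0.36 (SE), a fold of 0.518 with a 95% interval from 0.317 to 0.844 (edgeR adjusted p = 0.301). The 95% intervals given here are approximate and narrower than the edgeR test implies.

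Fosb, whose splice form ΔFosB is long-lived and builds up with repeated activity, stood at 14.1, 11.9, 17.7, 15.9 and 25.2 CPM in the APP/Tau mice and at 13.8, 30, 29.5, 48.2 and 25.5 CPM in the controls. Control 1 lay within the APP/Tau range and the other 4 controls above it. The difference was -0.79 ± 0.30 on the log2 scale (edgeR adjusted p = 0.296). The counts are per gene and do not separate the splice forms.

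Fosl2 encodes Fra-2, a Fos relative without the strong transactivation domain of Fos. It stood at 24.1, 20.2, 25.1, 18.3 and 40.9 CPM in APP/Tau mice and at 40.5, 56.2, 49.4, 64.8 and 48.8 CPM in controls. The groups meet only where APP/Tau mouse 5 lay just above control 1. Its log2 difference was -1.01 ± 0.25, a fold of 0.495 with a 95% interval from 0.351 to 0.699 (edgeR adjusted p = 0.251). DESeq2, run as another count model, called it (log2 -1.02, adjusted p = 0.0184), and limma-voom did not (adjusted p = 0.268).

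Among the Jun genes, Jun stood at 38.5, 45.4, 40.6, 54.5 and 84.6 CPM in naive APP/Tau BLA and at 73.4, 84.6, 61.7, 72.6 and 79.5 CPM in naive control BLA (log2 -0.50 ± 0.24, edgeR adjusted p = 0.384). APP/Tau mouse 5 was level with the highest control, and the other 4 were below every control. Junb, a partner that often restrains Jun at shared sites, stood at 49.2, 42.9, 55.1, 49.5 and 67.3 CPM against 53, 79.6, 76.5, 98.2 and 66.2 CPM (log2 -0.50 ± 0.18, edgeR adjusted p = 0.293). APP/Tau mouse 5 lay above controls 1 and 5, and APP/Tau mouse 3 above control 1. Jund was 179 ± 16.4 against 182 ± 16.8 CPM (SD, n = 5 each), and its log2 difference of -0.02 had a 95% interval from -0.19 to 0.15. Fosl1 was 4.31 ± 0.91 against 4.23 ± 1.00 CPM (SD, n = 5 each).

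Of all 23168 genes, 9 (0.0388%) passed adjusted p < 0.05 in this comparison, and 3067 (13.2%) had an unadjusted p below 0.05 by edgeR. By the latter rule 4 of the 7 members (Fos, Fosb, Fosl2 and Junb) counted as lower and none as higher. DESeq2 called 1 member, limma-voom none. The median log2 difference of the members was -0.50, beside 0.01 over all genes tested.

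Marker levels of several cell types differed with genotype in the same libraries. The summed level of the 5 excitatory neuron markers (among them Slc17a7 and Camk2a) ran from 2300 to 3960 CPM in naive APP/Tau BLA and from 4180 to 5010 CPM in naive control BLA, which do not overlap, and none of the 5 was at 0. The 8 BLA projection neuron markers summed to between 469 and 807 CPM against 799 to 1350 CPM. The 12 striatal and central amygdala markers summed to between 585 and 3170 CPM against 380 to 983 CPM. For the 5 oligodendrocyte markers the sums were 2330 to 4700 CPM against 1760 to 2300 CPM. For the 5 astrocyte markers they were 686 to 1390 CPM against 590 to 657 CPM, which do not overlap. The 8 microglial markers summed to between 242 and 411 CPM against 198 to 249 CPM. The 6 GABAergic neuron markers summed to between 1430 and 2030 CPM against 1260 to 1500 CPM. The part of the glial and GABAergic markers in the results was not tested. With the mean log2 level of the excitatory markers as a covariate, chosen after the data were seen, the edgeR log2 difference was -0.64 for Fosl2 (adjusted p = 0.583), -0.62 for Fos (adjusted p = 0.792), -0.39 for Fosb (adjusted p = 0.802), -0.27 for Junb (adjusted p = 0.782) and -0.16 for Jun (adjusted p = 0.882), and 1 member, Fosl2, was under the unadjusted limit in place of 4. The naive genotypes do not overlap in the summed level of the excitatory markers, so the fit with that covariate cannot tell genotype from marker level. With a striatal marker score as covariate Fosl2 was at -0.80 and Fos at -0.84. Without the 2 BLA libraries rich in striatal markers the values were -0.94 for Fosl2 and -0.87 for Fos.

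**Figure D2:**
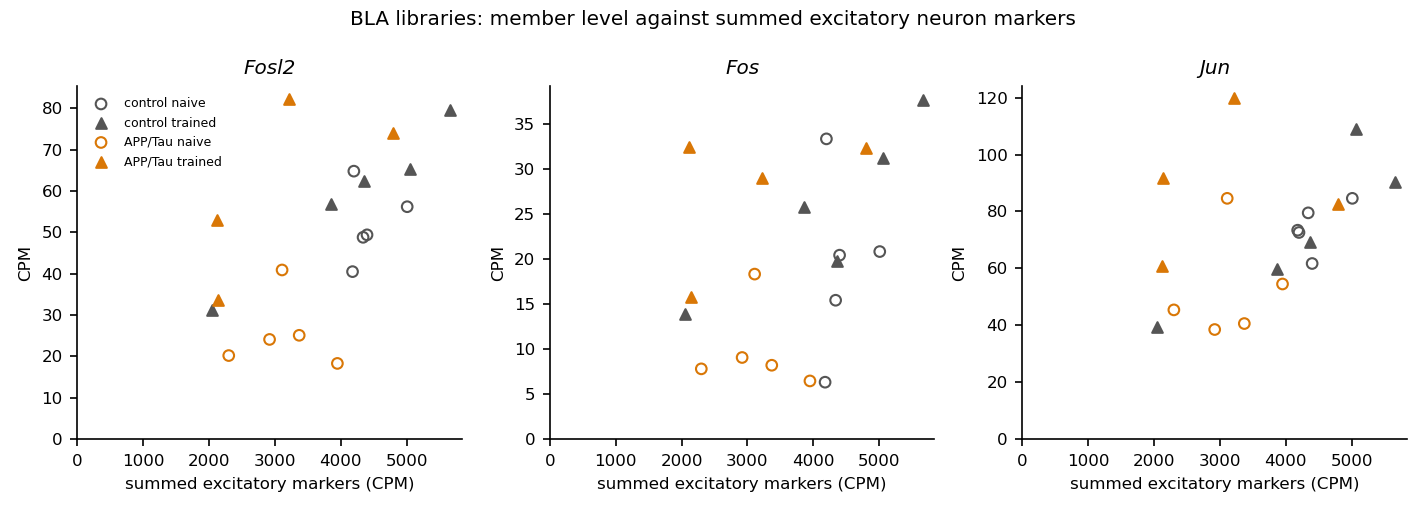
Level (CPM) of Fosl2, Fos and Jun on the y axis against the summed CPM of 5 excitatory neuron markers on the x axis, 1 point per BLA library, open circles naive, filled triangles trained, grey controls and orange APP/Tau. The 5 naive APP/Tau libraries lie at lower marker sums (2300 to 3960 CPM) than the 5 naive controls (4180 to 5010 CPM).

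In naive hippocampus Fosl2, Jun and Fosb had lower means in APP/Tau mice, while Fos and Junb were near equal, and again no member passed the adjusted threshold. Fosl2 stood at 50.6, 44.1, 33.4, 34.6 and 42.9 CPM in APP/Tau mice 1 to 5 and at 48.6, 59.2, 62.8, 66 and 58 CPM in controls 1 to 5. Only APP/Tau mouse 1 and control 1 overlap. The log2 difference was -0.52 ± 0.15, a fold of 0.699 with a 95% interval from 0.567 to 0.861 (edgeR adjusted p = 0.129), and DESeq2 called it (adjusted p = 0.0295).

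Jun stood at 91.1, 124, 116, 119 and 114 CPM in naive APP/Tau hippocampus and at 130, 164, 130, 146 and 131 CPM in naive control hippocampus. Every APP/Tau value was below every control value, which was true of 2.18% of the genes tested. On the log2 scale the groups differed by -0.31 ± 0.10 (edgeR adjusted p = 0.147). Fosb stood at 8.82, 6.99, 5.78, 5.99 and 9.73 CPM against 6.33, 9.15, 9.72, 20.6 and 11.9 CPM, with overlapping groups (log2 -0.63 ± 0.29, edgeR adjusted p = 0.305).

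Fos in naive hippocampus stood at 15.6, 13.5, 8.51, 7.82 and 25.8 CPM in APP/Tau mice and at 5.62, 14, 13.5, 23.4 and 11.6 CPM in controls. The groups cover each other, and the log2 difference of 0.06 had a 95% interval from -0.56 to 0.69. Junb was 58.2 ± 13.4 against 59.4 ± 17.9 CPM, Jund 154 ± 17.1 against 151 ± 2.98 CPM and Fosl1 3.78 ± 0.37 against 4.32 ± 0.70 CPM (SD, n = 5 each). In this comparison 52 of 25791 genes (0.202%) passed the adjusted threshold and 15.2% had an unadjusted edgeR p below 0.05. By that looser rule 3 members (Fosb, Fosl2 and Jun) counted as lower. DESeq2 called 1 member and limma-voom none.

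Markers of several cell types moved with genotype here. The 5 astrocyte markers summed to between 1700 and 6350 CPM in naive APP/Tau hippocampus and to between 1090 and 1270 CPM in naive controls. The 8 microglial markers summed to between 275 and 865 CPM against 219 to 243 CPM, which do not overlap, and the 6 dentate granule markers to between 196 and 411 CPM against 391 to 547 CPM. None of these markers was at 0 in either group, and their part in the results was not tested. The excitatory markers summed to between 2750 and 5700 CPM against 5060 to 5940 CPM, which overlap. With the excitatory marker covariate the edgeR log2 difference was -0.43 for Fosl2 (adjusted p = 0.229), -0.31 for Jun (adjusted p = 0.204) and -0.48 for Fosb (adjusted p = 0.541). Without the 2 libraries rich in 18S copies it was -0.58 for Fosl2, -0.34 for Jun and -0.78 for Fosb.

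The difference between the genotypes' gap in the BLA and that in the hippocampus was tested in a joint fit over 26725 genes. Fos was lower by a further -1.03 ± 0.50 on the log2 scale in the BLA (edgeR adjusted p = 0.753), Fosl2 by -0.51 ± 0.31 (adjusted p = 0.773) and Junb by -0.48 ± 0.27 (adjusted p = 0.764). No member passed, and 0.00% of genes did; 6.40% had an unadjusted edgeR p below 0.05, among them 1 member, Fos. DESeq2 and limma-voom called none. Without the 2 hippocampal libraries rich in 18S copies the value for Fos was -0.83 (edgeR adjusted p = 0.852), and 0 members were under the unadjusted limit. Whether libraries of the 2 tissues with the same running number in the labels come from the same mouse is not stated. The joint fit took them as independent. It did not show a genotype gap in Fos that is particular to the BLA, and it cannot exclude one.

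**Figure D3:**
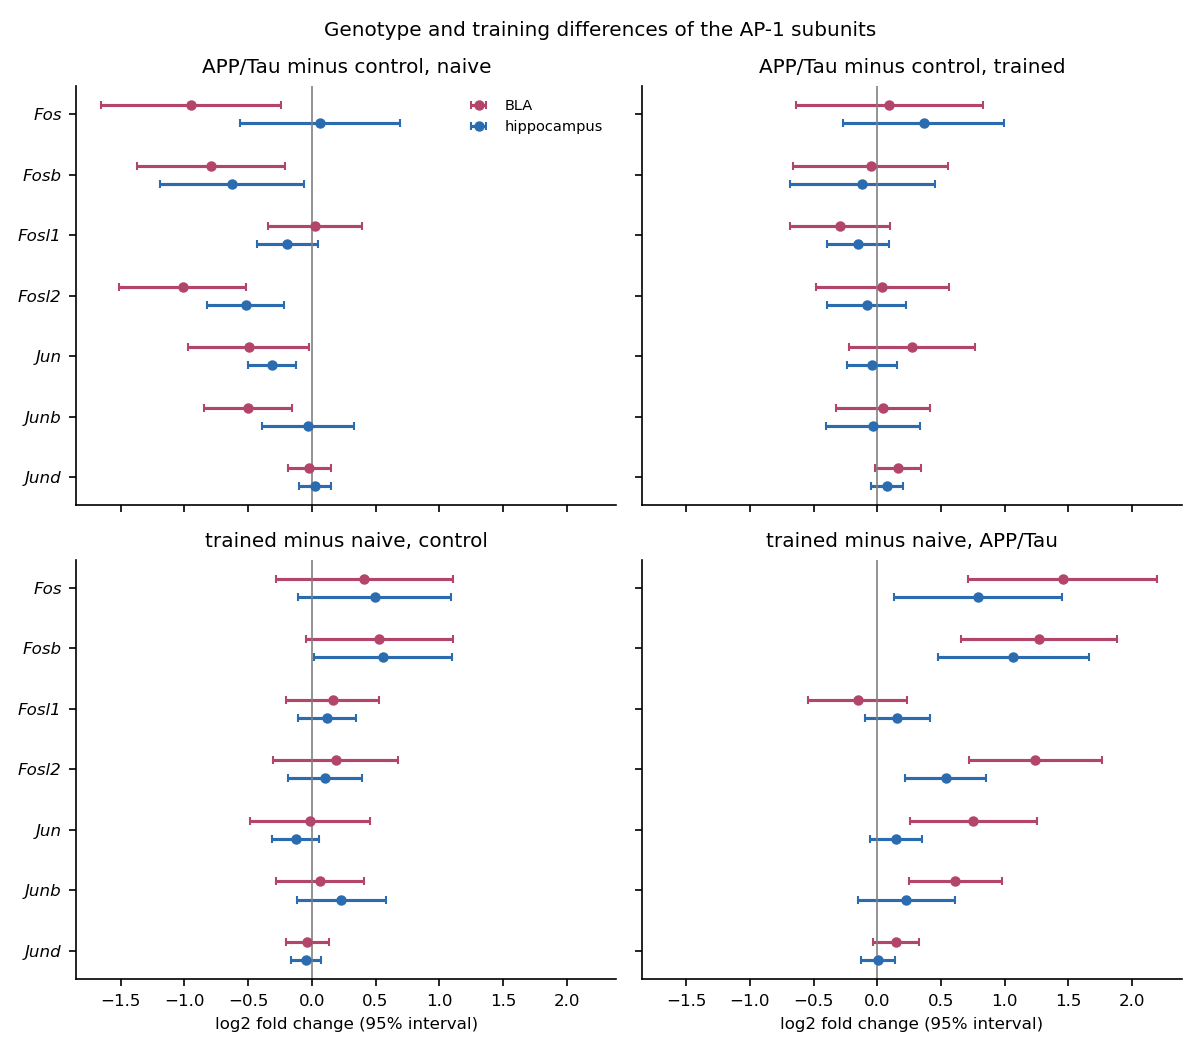
Log2 fold change (x axis) of each AP-1 subunit gene with its approximate 95% interval, with the BLA in purple and the hippocampus in blue. Panels show the genotype difference in naive and in trained mice and the training difference in controls and in APP/Tau mice. In naive mice the BLA values of Fos, Fosb, Fosl2, Jun and Junb lie between -1.01 and -0.50, in trained mice every interval includes 0, and in APP/Tau BLA the training values of the same 5 genes lie between 0.61 and 1.46.

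The next comparison asks how the genes stood 1 h after the shock. In control BLA, mean levels of Fos and Fosb were above those of naive mice but the libraries overlapped widely, and no member passed. Fos stood at 25.7, 13.9, 37.6, 19.8 and 31.2 CPM in trained controls 1 to 5, against 6.31 to 33.3 CPM in naive controls, so that the ranges of trained and naive mice overlap (log2 0.41 ± 0.35, 95% interval -0.28 to 1.11, edgeR adjusted p = 1). Fosb stood at 47.4, 18.9, 55.9, 44.5 and 45.6 CPM, with trained control 2 inside the lower part of the naive range (log2 0.53 ± 0.29, 95% interval -0.05 to 1.11, edgeR adjusted p = 1). Trained control 2 was also the library highest in striatal markers among controls, and it had the lowest value of its group for Fos, Fosb, Fosl2, Jun and Junb.

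Fosl2 (59.1 ± 17.7 against 51.9 ± 9.10 CPM), Jun (73.6 ± 27.0 against 74.3 ± 8.60 CPM), Junb (78.2 ± 21.1 against 74.7 ± 16.8 CPM), and Jund (177 ± 17.9 against 182 ± 16.8 CPM) differed between trained and naive controls by less than the SD of either group (n = 5 each). Fosl1 was 4.74 ± 0.33 against 4.23 ± 1.00 CPM (SD, n = 5 each, edgeR adjusted p = 1). In this comparison 0.00% of genes passed the adjusted threshold and 2.09% had an unadjusted edgeR p below 0.05, among them 0 members. By DESeq2 and limma-voom 0 members were called too. With the excitatory marker covariate Fosb was at 0.55, and without the 2 libraries rich in striatal markers at 0.72, and in both fits it alone came under the unadjusted limit (edgeR adjusted p = 1 in both). The 95% intervals still admit a rise of up to 2.16-fold for Fos and 2.15-fold for Fosb.

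In control hippocampus trained mice stood likewise a little above naive mice for the same pair of genes. Fos ran from 13.1 to 27.7 CPM with a median of 18.3 CPM in 6 trained controls, against 5.62 to 23.4 CPM with a median of 13.5 CPM in 5 naive controls (log2 0.49 ± 0.31, edgeR adjusted p = 1). Fosb ran from 9.25 to 22.6 CPM with a median of 17.8 CPM against 6.33 to 20.6 CPM with a median of 9.72 CPM (log2 0.56 ± 0.28, edgeR adjusted p = 1). In both genes the ranges overlap over most of their length. The remaining 5 members had log2 differences between -0.13 (Jun) and 0.23 (Junb). No member passed; 0.00% of genes did, and 2.42% had an unadjusted edgeR p below 0.05, among them 0 members. DESeq2 and limma-voom called 0 members; by limma-voom 1 member had an unadjusted p below 0.05.

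In APP/Tau BLA, in a comparison of 4 with 5 libraries, means of Fos, Fosb, Fosl2, Jun and Junb were 1.53-fold to 2.74-fold those of naive mice, and no member passed. Fos stood at 15.8, 32.3, 29 and 32.4 CPM in trained APP/Tau mice 1 to 4, against 6.45 to 18.3 CPM in naive APP/Tau mice. Trained mouse 1 was below naive mouse 5, the only overlap. The log2 difference was 1.46 ± 0.38, a fold of 2.74 with a 95% interval from 1.64 to 4.59 (edgeR adjusted p = 0.708).

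Fosb stood at 30.8, 58.9, 42.1 and 31.9 CPM in trained APP/Tau BLA, above all 5 naive APP/Tau values (11.9 to 25.2 CPM). Such a separation upward was seen in 0.902% of genes. The difference on the log2 scale was 1.27 ± 0.31 (fold 2.41, edgeR adjusted p = 0.596). Fosl2 stood at 33.6, 74.1, 82.2 and 53 CPM against 18.3 to 40.9 CPM, overlapping through trained mouse 1 and naive mouse 5 (log2 1.24 ± 0.27, fold 2.36, edgeR adjusted p = 0.596). DESeq2 called Fosl2 here (adjusted p = 0.00988).

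Jun stood at 91.9, 82.6, 120 and 60.9 CPM in trained against 38.5 to 84.6 CPM in naive APP/Tau BLA (log2 0.75 ± 0.25, edgeR adjusted p = 0.782). Junb stood at 65, 93.2, 86.7 and 77.8 CPM against 42.9 to 67.3 CPM (log2 0.61 ± 0.19, edgeR adjusted p = 0.712). Naive mouse 5 was the library that overlapped the trained group in both genes, above 2 trained mice for Jun and above 1 for Junb. Jund (198 ± 19.6 CPM, n = 4, against 179 ± 16.4 CPM, n = 5, SD) and Fosl1 (3.87 ± 1.15 against 4.31 ± 0.91 CPM) had log2 differences of 0.15 ± 0.09 and -0.16 ± 0.20 (edgeR adjusted p = 0.895 and 0.962).

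In this comparison 0.00% of genes passed the adjusted threshold, and 5.85% had an unadjusted edgeR p below 0.05. By the latter rule 5 of 7 members counted as higher in trained mice. DESeq2 called 1 member, Fosl2, and limma-voom none. The median log2 difference of the members was 0.75, beside 0.01 over all genes. Both APP/Tau groups had low and scattered excitatory marker sums (2300 to 3960 CPM naive, 2120 to 4810 CPM trained). The 5 astrocyte markers summed to between 686 and 1390 CPM (median 726) in naive and between 666 and 2640 CPM (median 1400) in trained APP/Tau BLA, and the 8 microglial markers to between 242 and 411 CPM against 243 to 534 CPM. The part of the glial markers in the result was not tested. With the excitatory marker covariate the log2 difference was 1.14 for Fos, 0.86 for Fosb, 0.84 for Fosl2, 0.45 for Jun and 0.38 for Junb, and the same 5 were under the unadjusted limit (edgeR adjusted p from 0.503 to 0.538).

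In APP/Tau hippocampus the levels of Fos, Fosb and Fosl2 after training were 1.73-fold, 2.1-fold and 1.45-fold those of naive mice, and no member passed. Fos stood at 24.5, 19.8, 31.3 and 23.1 CPM in trained against 7.82 to 25.8 CPM in naive mice (log2 0.79 ± 0.34, edgeR adjusted p = 0.986), with naive mouse 5 above 3 of the 4 trained mice. Fosb stood at 8.69, 21.9, 14.1 and 18 CPM against 5.78 to 9.73 CPM (log2 1.07 ± 0.30, edgeR adjusted p = 0.986), with trained mouse 1 within the naive range. Fosl2 stood at 40, 73.8, 50.7 and 74.3 CPM against 33.4 to 50.6 CPM (log2 0.54 ± 0.16, edgeR adjusted p = 0.986).

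In the same libraries Jun was 125 ± 15.1 CPM (n = 4) against 113 ± 12.7 CPM (n = 5), Junb 68.2 ± 7.27 against 58.2 ± 13.4 CPM and Jund 154 ± 6.97 against 154 ± 17.1 CPM (SD). In this comparison 0.00% of genes passed, and 4.59% had an unadjusted edgeR p below 0.05, among them 3 members, all higher. By DESeq2 and limma-voom 0 members were called.

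Whether training moved the genes differently in the genotypes was tested as an interaction, since a gap in one genotype and not in the other does not show a difference. In the BLA the training difference was larger in APP/Tau mice by 1.05 ± 0.37 on the log2 scale for Fosl2, 1.04 ± 0.52 for Fos, 0.77 ± 0.35 for Jun, 0.74 ± 0.43 for Fosb and 0.55 ± 0.26 for Junb. The edgeR adjusted p was 0.949 for each of them. In all, 0.00% of genes passed and 3.86% had an unadjusted edgeR p below 0.05, among them 3 members, Fosl2, Jun and Junb. With the excitatory marker covariate 1 member, Fosl2, was under that unadjusted limit (0.64, edgeR adjusted p = 0.85), and without the 2 BLA libraries rich in striatal markers it was again Fosl2 alone (0.82, edgeR adjusted p = 0.934). DESeq2 and limma-voom called 0 members.

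In the hippocampus the interaction was 0.43 ± 0.22 for Fosl2, 0.27 ± 0.14 for Jun and 0.30 ± 0.45 for Fos (edgeR adjusted p = 0.984 each). There 0.00% of genes passed the adjusted threshold and 3.90% the unadjusted one, among them 0 members. By DESeq2 and limma-voom 0 members were called, and by DESeq2 1 member had an unadjusted p below 0.05. The interaction and both training comparisons share the naive groups, so the low naive APP/Tau values enter the genotype comparison and the training comparison alike.

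After training, the genotypes were close. In trained BLA Fos was 27.4 ± 7.88 CPM in APP/Tau mice (n = 4) and 25.7 ± 9.30 CPM in controls (n = 5), Fosb 40.9 ± 13 against 42.5 ± 13.9 CPM and Fosl2 60.7 ± 21.9 against 59.1 ± 17.7 CPM (SD). The log2 difference was 0.09 for Fos with a 95% interval from -0.64 to 0.83, and 0.04 for Fosl2 with an interval from -0.48 to 0.56, so that for Fosl2 folds from 0.717 to 1.47 were within the interval. Jun had the largest positive mean difference (log2 0.27 ± 0.25, edgeR adjusted p = 0.747). Of all genes 0.0432% passed the adjusted threshold and 10.3% had an unadjusted edgeR p below 0.05, among them 0 members. DESeq2 and limma-voom called 0 members.

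In trained hippocampus the log2 genotype difference ran from -0.15 (Fosl1) to 0.37 (Fos) over the members, with Fos at 24.7 ± 4.87 CPM (n = 4) against 19.2 ± 5.55 CPM (n = 6, SD). There 721 genes (2.80%) passed the adjusted threshold and 20.3% had an unadjusted edgeR p below 0.05, and 0 members were among either set. By DESeq2 and limma-voom 0 members were called.

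Genes related to AP-1 were counted on 5 lists, of other bZIP factors, of kinases and factors upstream, of other immediate early transcription factors, of immediate early effectors and of genes described as AP-1 targets. In trained hippocampus 5 of 22 bZIP factors passed upward and 0 downward, with Atf3, a stress-induced factor that can pair with Jun, at a log2 difference of 2.11 ± 0.45 (edgeR adjusted p = 0.0156) and Nfe2l2, a regulator of antioxidant genes, at 0.95 ± 0.21 (adjusted p = 0.0189). Of 23 described AP-1 targets 7 passed upward, led by Hmox1 (haem oxygenase, 1.91 ± 0.30, adjusted p = 0.00337), Spp1 (osteopontin, 4.89 ± 0.84, adjusted p = 0.00528) and Vim (vimentin, 2.61 ± 0.52, adjusted p = 0.0121). The upstream list had 1 of 32 upward (Elk3, 0.57 ± 0.12, adjusted p = 0.0178), the immediate early transcription factors 1 of 18 (Atf3) and the effectors 2 of 24 (Zfp36, 1.39 ± 0.30, adjusted p = 0.0168, and Ccn1, 1.31 ± 0.35, adjusted p = 0.0485). No gene of these lists passed downward. Of all genes tested in this comparison 2.80% passed, 684 upward and 37 downward. The lists were chosen with earlier results of these data known. The list medians lay between -0.10 and 0.19, beside -0.01 over all genes. The medians of the AP-1 target list (-0.06) and of the upstream list (-0.10) were below 0, so in both the median and the called genes differ in sign.

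Glial markers were higher in the same libraries. Astrocyte markers summed to between 1420 and 5820 CPM in trained APP/Tau hippocampus and between 1060 and 1250 CPM in trained controls, and the 8 microglial markers to between 258 and 679 CPM against 211 to 260 CPM. With the excitatory marker covariate, of the named genes Hmox1 alone kept its call (edgeR adjusted p = 0.00259), and limma-voom likewise called Hmox1 alone among them. Leaving out trained APP/Tau mouse 1 or mouse 3 ended the calls of Atf3, Nfe2l2, Elk3, Zfp36, Ccn1 and Vim, with adjusted p from 0.0512 to 0.364, and Hmox1 and Spp1 passed in all 10 fits that left out 1 library. Without the 2 libraries rich in 18S copies Atf3, Nfe2l2, Zfp36 and Ccn1 lost their calls (edgeR adjusted p from 0.0557 to 0.112). Ccn1 also lost its call without trained control 1, 2, 3, 4 or 6.

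In the other within-tissue comparisons a single gene of the 5 lists passed: Nr4a2, an immediate early nuclear receptor, was lower in naive APP/Tau hippocampus by -0.61 ± 0.12 on the log2 scale (edgeR adjusted p = 0.0411), and 8 of the 10 fits that left out 1 library lost this call, with adjusted p up to 0.132 (without naive control 2). Only leaving out naive APP/Tau mouse 1 or 5 kept it. The call was also lost with the excitatory marker covariate (edgeR adjusted p = 0.0522) and without the 2 libraries rich in 18S copies (edgeR adjusted p = 0.0792). In APP/Tau BLA after training, 9 of 18 other immediate early transcription factors and 11 of 24 effectors had an unadjusted edgeR p below 0.05, all higher, beside 5.85% of all genes, with median log2 differences of 0.50 and 0.35. In APP/Tau hippocampus after training 5 of 18 and 5 of 24 were higher and 0 and 1 lower, beside 4.59% of all genes. In naive BLA 6 of 18 and 9 of 24 were lower by that rule and 1 and 2 higher, with medians of -0.25 and -0.19, beside 13.2% of all genes. In naive hippocampus 4 of 18 and 3 of 24 were lower and 5 and 4 higher, beside 15.2% of all genes. In controls after training the counts were 1 of 18 and 0 of 24 in the BLA (2.09% of all genes) and 0 of 18 and 0 of 24 in the hippocampus (2.42%).

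Between the regions 3 of the 7 members differed in naive controls, beside 41.1% of all genes called, a share near that of the members. Fosb was higher in the BLA by 1.37 ± 0.31 on the log2 scale, a fold of 2.59 with a 95% interval from 1.70 to 3.94 (edgeR adjusted p = 0.00045), at 13.8 to 48.2 CPM against 6.33 to 20.6 CPM. Of 25 pairs of a BLA and a hippocampal library, 24 had the higher value in the BLA. Jun was lower in the BLA by -0.89 ± 0.19, a fold of 0.54 (edgeR adjusted p = 0.000247), and its 5 BLA values (61.7 to 84.6 CPM) lay below all 5 hippocampal ones (130 to 164 CPM). Jund was higher by 0.29 ± 0.08, a fold of 1.22 (edgeR adjusted p = 0.0026), and its BLA values (162 to 203 CPM) lay above all hippocampal ones (148 to 155 CPM).

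Fos (log2 0.52 ± 0.36, edgeR adjusted p = 0.249), Junb (0.36 ± 0.19, adjusted p = 0.136), Fosl2 (-0.16 ± 0.22, adjusted p = 0.598) and Fosl1 (0.00 ± 0.16, adjusted p = 0.99) did not pass between regions. Junb passed when naive control 4 of the hippocampus was left out (0.54, edgeR adjusted p = 0.0219). These fits had no block for the running number, and a fit with that block is given below with the processing alternatives. Separation without overlap was seen upward in 15.7% of genes and downward in 16.5%, so a member separating is no rarity here. RNA input, dissection and depth differ between the regions and cannot be told apart from region.

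Other list genes differed between regions too, in a comparison that called 41.1% of all genes tested. Of the bZIP factors 2 of 22 passed as higher and 7 as lower in the BLA (Cebpd at -3.07 ± 0.29, Atf7 at -0.80 ± 0.09 and Creb3 at 0.50 ± 0.07), of the upstream genes 12 and 8 of 32 (Mapk3, the kinase ERK1, at 0.62 ± 0.10, Mef2a at -0.45 ± 0.08, Mapk9, a Jun kinase, at 0.30 ± 0.06), of the immediate early factors 2 and 4 of 18 (Nr4a2 at -1.14 ± 0.23, Atf3 at -1.81 ± 0.51 and Klf2 at -0.70 ± 0.23), of the effectors 5 and 5 of 24 (Rgs2 at 1.54 ± 0.13, Dusp4 at -1.36 ± 0.18 and Dusp5 at -1.39 ± 0.23) and of the described targets 11 and 3 of 23 (Penk, proenkephalin, at 4.51 ± 0.45, Vgf at 1.07 ± 0.12 and Cdk5 at 0.53 ± 0.07). Klf2 lost its call without naive control 1 of the BLA or naive control 3 of the hippocampus (edgeR adjusted p = 0.0598 and 0.0582), and Atf3 did with limma-voom (adjusted p = 0.0585). For the change of the regional difference with training in controls, 0 members passed by edgeR, DESeq2 or limma-voom, beside 0.00374% of genes, and 0 were among the 2.25% of genes with an unadjusted edgeR p below 0.05. The interaction ranged from -0.17 (Junb) to 0.11 (Jun) on the log2 scale.

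The ratio of Fosb to Fos counts within a library does not depend on library scaling. It was 2.19, 1.44, 1.45, 1.45 and 1.66 in naive control BLA and 1.13, 0.653, 0.722, 0.88 and 1.03 in naive control hippocampus, without overlap (log2 difference 0.90, exact permutation test over 252 arrangements, 2-sided, p = 0.00794, adjusted over 4 such tests 0.0159). In naive APP/Tau mice it was 1.56, 1.53, 2.16, 2.46 and 1.37 in the BLA and 0.566, 0.517, 0.679, 0.766 and 0.378 in the hippocampus (log2 difference 1.65, exact permutation p = 0.00794, adjusted 0.0159). The regional gap was thus present in naive mice of both genotypes. These tests took libraries that share a running number as independent. Trained mice were not tested. Their ratio ran from 0.985 to 1.95 in APP/Tau BLA against 0.354 to 1.11 in APP/Tau hippocampus. In trained controls it ran from 1.36 to 2.25 in the BLA against 0.63 to 1.49 in the hippocampus, so both pairs of ranges overlap. Between genotypes the ratio was lower in APP/Tau hippocampus by -0.61 on the log2 scale, which did not pass after adjustment (exact permutation p = 0.0397, adjusted 0.0529), and near equal in the BLA (0.14, exact permutation p = 0.516). The ratio was chosen after the levels had been seen.

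**Figure D4:**
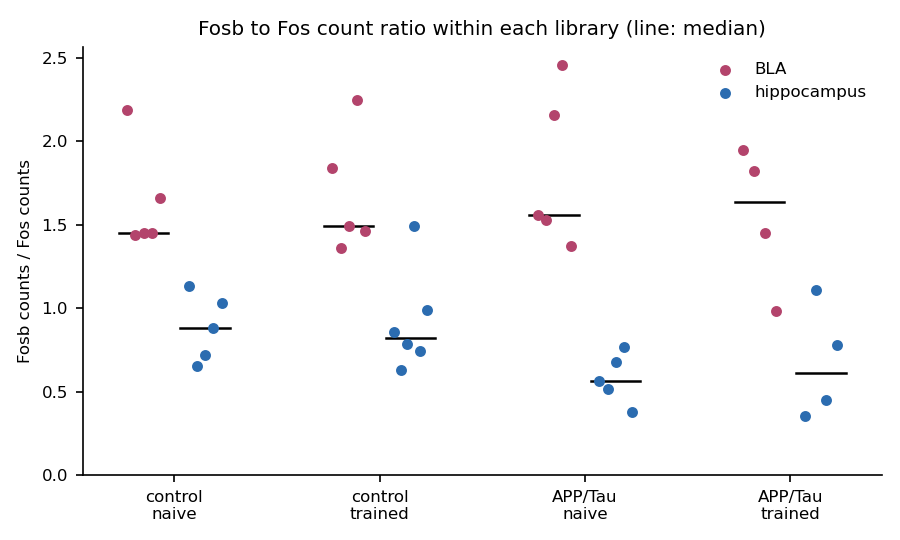
Ratio of Fosb to Fos counts (y axis, from 0) in each library by genotype and training, BLA in purple and hippocampus in blue, with the group median as a line. BLA medians lie between 1.45 and 1.64 and hippocampal medians between 0.566 and 0.88.

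Ordered by group mean, Fos was highest in trained APP/Tau BLA (27.4 CPM), then trained control BLA (25.7), trained APP/Tau hippocampus (24.7), naive control BLA and trained control hippocampus (19.2 each), naive APP/Tau hippocampus (14.2), naive control hippocampus (13.6) and naive APP/Tau BLA (9.96). The tissues were scaled separately, so the order across them is approximate. Neighbours in this order differed by less than the SD of both groups, except that trained APP/Tau hippocampus stood above the next group by more than its own SD of 4.87 CPM. The widest spread within 1 group was in naive controls, where Fos varied 5.29-fold in the BLA and 4.16-fold in the hippocampus. Jund varied 1.36-fold over all libraries of either tissue.

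Libraries of the 2 tissues share a running number in the labels, and the 19 numbers present in both tissues join libraries of the same genotype and training. Whether a number marks the same mouse is not stated. Over the 10 naive numbers, Fosb in the BLA and in the hippocampus correlated on the log2 CPM scale with Pearson r = 0.836 (permutation p = 0.00254, adjusted over 14 relations 0.0356; Spearman rho = 0.685, permutation p = 0.0349, adjusted 0.122; r = 0.695 without the 2 numbers farthest from the median). Fosl2 had r = 0.814 (permutation p = 0.0055, adjusted 0.0385; rho = 0.794, permutation p = 0.00911, adjusted 0.0886; r = 0.772 without those 2). Fos had r = 0.76 (permutation p = 0.0111, adjusted 0.0517; rho = 0.754, permutation p = 0.0147, adjusted 0.0886; r = 0.585 without those 2).

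Since mean levels of some members differed between the genotypes, though no member passed, the relation was repeated on deviations from the genotype mean. It was then stronger for Fos and weaker for Fosb and Fosl2 (r = 0.939 for Fos, permutation p adjusted to 0.0014, r = 0.767 for Fosb, adjusted 0.072, and r = 0.406 for Fosl2, adjusted 0.33). Naive control 1 was the lowest of the naive controls for Fos in both regions (6.31 and 5.62 CPM), and naive control 4 the highest in both (33.3 and 23.4 CPM). Naive control 1 also had the highest share of Rn18s-rs5 counts of its tissue in both regions (0.893% in the BLA and 5.18% in the hippocampus), whose part in the relation was not tested. Among the 9 trained numbers no member passed after adjustment, with r between -0.582 (Jun) and 0.78 (Fosl1) and a smallest adjusted exact permutation p of 0.0585.

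**Figure D5:**
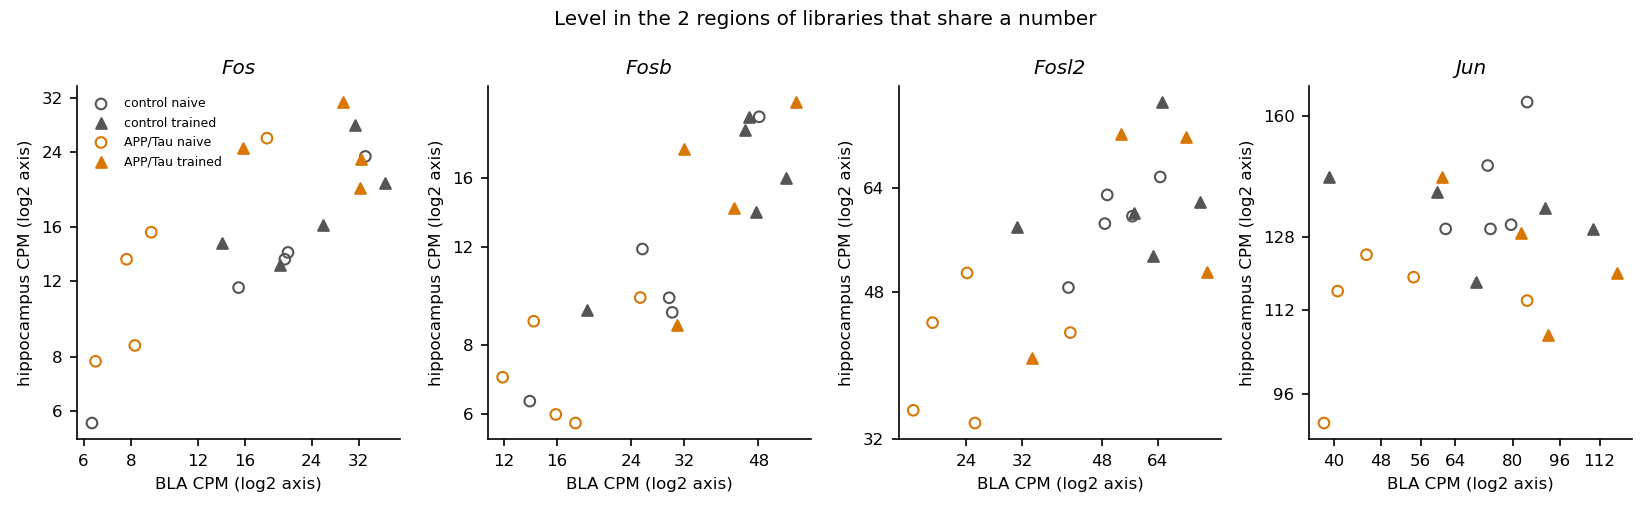
CPM in the BLA (x axis) against CPM in the hippocampus (y axis), both on log2 axes, for Fos, Fosb, Fosl2 and Jun, with 1 point for each of 19 library numbers, open circles naive, filled triangles trained, grey controls and orange APP/Tau. In naive points of Fos, Fosb and Fosl2 high values in one region go with high values in the other, with r = 0.76, 0.836 and 0.814 over 10 numbers.

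Across libraries of a tissue, the genes most like Fos were found by Pearson r of log2 CPM among 16423 genes of at least 1 CPM in the BLA and 16628 in the hippocampus, as a description over libraries that share dissection and group. In 19 BLA libraries the 5 most alike genes outside the family were Egr1 (0.949), Egr4 (0.936), Nr4a1 (0.902), Midn (0.868) and Dnajb1 (0.867). Junb (0.931), Fosb (0.929) and Fosl2 (0.884) ranked 3, 4 and 6 among all genes. Jun (0.605) ranked 184, and Fosl1 (0.224) and Jund (0.23) fell far behind. In 20 hippocampal libraries the leading genes were Sertad1 (0.899), Egr1 (0.831), Faf2 (0.829), Midn (0.81) and Acer2 (0.8), with Junb (0.83) ranking 3, Fosb (0.675) ranking 52 and Fosl2 (0.479) ranking 827. Egr1 and Nr4a1 are themselves immediate early genes.

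Jun followed other genes than Fos. In the BLA the most alike were Dlx1as (0.957), Maf (0.939), Vip (0.913), Nbl1 (0.893) and Trpc6 (0.893), of which Vip is the neuropeptide of a class of interneurons and Dlx1as an antisense transcript of an interneuron factor. In the hippocampus they were Gm9748 (0.849), Ahdc1 (0.844), Gm10840 (0.826), Tspan33 (0.826) and Chd4 (0.818), and the r of Jun with Fos was -0.045. Within APP/Tau BLA, the 3 libraries highest in Gfap, the filament gene of astrocytes, were trained 1 (1810 CPM), trained 3 (1130 CPM) and naive 5 (671 CPM), and their Jun levels of 91.9, 120 and 84.6 CPM were the highest 3 of the 9. In trained control BLA, library 5 had 109 CPM of Jun, while Gfap in that group ran from 28.5 to 72.8 CPM. In naive hippocampus Gfap ran from 901 to 4880 CPM in APP/Tau libraries and from 375 to 497 CPM in controls. Jun there was lower in every APP/Tau library than in every control. The part of astrocyte content in Jun was not tested.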

How the data were processed

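Input RNA of 19 BLA and 20 hippocampal libraries was sequenced after poly(A) selection. The deposited values are whole-number counts per gene, made by the authors; per the submitters' processing notes reads were trimmed with Trimmomatic 0.39 and the build was mm39. For aligner, counter, annotation and strand, the method is not given in the sources used here. Between 54.3% and 69% of small counts were even, and how mates were counted is not given either, so counts may not be numbers of independent fragments.

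Genes were filtered with filterByExpr (minimum count 10, minimum total 15), scaled by TMM and tested with the quasi-likelihood F test of edgeR 4.0.16 in R 4.3.3, with 1 mean per group, for each tissue and for both together. P-values were adjusted by Benjamini and Hochberg over all genes tested, with a threshold of 0.05. The standard error is the log2 fold change divided by the root of F, and the 95% interval is 1.96 standard errors to each side. DESeq2 1.42.0, limma-voom (limma 3.58.1), RLE scaling, other filters, marker covariates, a replicate block and each library left out in turn were alternatives. The edgeR fit was checked for training in control BLA on simulated counts, with the same spread setting for every gene. That check did not model the spread of each member, which for Fos in naive control BLA was 51% of the mean (SD). No 2 libraries agreed within sampling noise (chi-square per gene at least 10.7).

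Groups follow the sample titles. The labels describe dissection per mouse but do not number the mice, so p-values measure the spread between libraries. The members and the lists were chosen with earlier results of these data known. All 7 members are named in every comparison, with up to 3 called genes of smallest p from each list where any list gene was called, and the 5 genes most like Fos and most like Jun. Genes that this rule would name but that are withheld are not reported here. Positions, lengths and promoters come from GRCm38 tables of GENCODE and RefSeq, matched by symbol; all 7 members had a position and 6 a promoter, and no coordinate was converted.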

Additional observations from a re-analysis of the deposited data

Results flagged for a closer look

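Each of the 7 genes was screened in 8 groups of 4 to 6 libraries, 56 groups in all, for a highest or lowest library far from the others by Dixon's criterion at the 95% level, which chance meets in about 1 in 20 groups. It was met in 2. Fos in naive APP/Tau BLA library 5 stood at 18.3 CPM, against 6.45 to 9.05 CPM in the other 4 of its group. The same library had the highest Fosb, Fosl2, Jun and Junb of the group and 671 CPM of Gfap, the highest of the naive APP/Tau BLA libraries; their part in the result was not tested. Fosl1 in naive APP/Tau BLA library 2, one of the libraries rich in striatal markers, stood at 5.92 CPM.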

How the results depend on the processing

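The count of called members stayed at 0, or within 1.5 times a reported count above 0, in all but 5 of the alternatives tried. Reported counts were above 0 only between regions in naive controls and for the cross-region relations. Elsewhere agreement means only that both counts were 0. DESeq2 called 1 member, Fosl2, in naive BLA, in APP/Tau BLA after training and in naive hippocampus, where edgeR called 0. With the library number as a replicate block 5 members were called between regions in place of 3, Fos (0.48, edgeR adjusted p = 0.0182) and Junb (0.37, adjusted p = 0.0209) being the added ones. On deviations from the genotype mean 1 cross-region relation passed in place of 2. No called value changed sign, whether of a member or of a named list gene. With 1 library left out, the log2 difference of Fosl2 ran from -1.24 to -0.91 in naive BLA (adjusted p 0.147 to 0.454), and in region Fosb ran from 1.12 to 1.69, Jun from -0.94 to -0.83 and Jund from 0.25 to 0.33, called in all 10 fits.

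The title numbers did not pair the libraries: over 27 pairs a tissue, deviations of same-numbered libraries correlated with a mean r of -0.039 in the BLA and 0.069 in the hippocampus. A replicate block of these numbers changed no member's call within a tissue. Library numbers gave a mean r of 0.295 over 19 pairs across tissues, 17 of them above 0.1, and 17 libraries were most like their own number, a hint from the data and not from the design.

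Counts over all genes moved more. In trained hippocampus the 721 genes became 1584 with DESeq2, 35 with limma-voom, 1456 with the replicate block, 43 with the excitatory marker covariate and 227 without the libraries rich in 18S copies. In naive hippocampus the 52 became 744, 24, 64, 52 and 21 in the same order. In the BLA DESeq2 called 110 genes in place of 9 in naive and 204 in place of 10 in trained mice. The cause was not tested. Fosl1 was under 6 CPM, and its reads cannot be told apart from those of Ccdc85b where the genes overlap.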
